A study of Drosophila melanogaster with 6 samples.

Results

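The genes described here encode subunits of the origin recognition complex and of the MCM helicase, the machines that mark and open replication origins. RNA was compared between Drosophila SL2 cells given double-stranded RNA (dsRNA) against ISWI and SL2 cells given dsRNA against GST. Members were the probe sets that the array annotation assigns to exactly 1 of 10 listed symbols, Orc1, Orc2, Orc5, Orc6, Mcm2, Mcm3, dpa, Mcm5, Mcm6 and Mcm7. The rule found 8 probe sets of 18952 on the array, 1 for each of 8 genes. Orc6 and Mcm7 had no probe set under the rule and were not analysed here. SL2 is a line derived from late Drosophila embryos, with features of haemocytes, the insect blood cells. The ISWI group had 3 cultures, incubated with 10 micrograms of dsRNA for 1 hour in medium without serum and harvested after 7 days. The GST group had 3 cultures treated in the same way with dsRNA against GST, a control target, and no untreated cells were among the samples used here. Each culture was measured on 1 array, and the question was which transcripts change when Iswi, the ATPase of several nucleosome remodelling complexes, is depleted.

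The origin recognition complex binds DNA at future start sites of replication. With the loading factors Cdc6 and Cdt1 (Cdt1 is encoded by dup in the fly) it places MCM rings around the DNA, a step called licensing. Mcm2, Mcm3, Mcm4, Mcm5, Mcm6 and Mcm7 each supply a different subunit of that ring, and dpa (disc proliferation abnormal) is the fly gene for Mcm4. In S phase the loaded ring joins Cdc45 and the GINS complex to become the helicase that unwinds DNA ahead of the polymerases.

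The Iswi probe set stood at 7.66, 7.74 and 7.16 on the ISWI arrays, against 10.53, 10.54 and 10.47 on the GST arrays (deposited log2 values). The signal of the targeted gene was thus at 12.6% of its GST level, a log2 fold change of -2.99 (standard error 0.14, limma adjusted p = 7.61e-06). The labels do not say which stretch of Iswi the dsRNA covers, so the probe set may lie within it and also read remaining dsRNA, which was not tested. Of the haemocyte markers chosen, 11 of 11 lay above a log2 value of 4, the level a probe set had to exceed on at least 3 arrays to be tested. Their group means ran from 10.34 to 14.81 with ISWI dsRNA and from 11.20 to 14.89 with GST dsRNA. At a limma adjusted p of 0.05, 2 markers rose and 3 fell (45.5% passed, beside 41.1% of all genes tested). Whether this bears on the genes below was not tested. Of 8 markers of neurons, muscle, germline, epithelium and fat body with a probe set, 6 were at or below that level on every array, and elav and ct were above it. The eIF-4a controls, whose 3' and 5' probe sets track RNA integrity, differed by 2.26 on ISWI replicate 2, by 1.86 and 1.91 on the other ISWI arrays and by 1.69 to 1.85 on the GST arrays. The mean of the 18S rRNA control probe sets was 8.78 to 8.93 on the ISWI arrays, against 12.99 on GST replicate 1, 9.30 on GST replicate 2 and 8.31 on GST replicate 3. Among all 5997 genes tested, 2462 passed a limma adjusted p of 0.05 (41.1%), with 23.4% higher and 17.6% lower in the ISWI group. These shares are the background for every count below at an adjusted p of 0.05. For counts at an unadjusted p of 0.05, the share of all genes tested was not counted. It is at least 41.1%, since an adjusted p is never under its unadjusted p. The excess of higher calls depends on the scaling. Over the 7390 probe sets tested, 1634 were higher and 1340 lower as reported, against 1476 and 1510 after centring each array on its median. After a second quantile normalization, which put 7394 probe sets past the filter, 1524 were higher and 1515 lower.

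Of the 8 origin recognition and MCM genes, dpa fell and Orc5 rose after ISWI dsRNA, and the other 6 did not pass limma's adjusted p of 0.05. The share that passed, 2 of 8, lay under the 41.1% of all genes tested. All 8 probe sets lay above 4 on all 6 arrays, the lowest single value being 6.60, so none was near the level of undetected transcripts. The median log2 fold change of the 8 genes was -0.0020, beside 0.028 for all genes tested. None of them reached a 1.5-fold difference. Over the array, 908 of the 7390 probe sets tested passed an adjusted p of 0.05 with at least a 1.5-fold difference. The groups did not overlap for 5 of the 8 genes, 3 with the ISWI arrays above and 2 with them below, against 31.2% above, 23.7% below and 54.9% in all for the genes tested. Because RNA came from whole cultures, fewer cells with a transcript and less transcript per cell cannot be told apart.

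**Figure D1:**
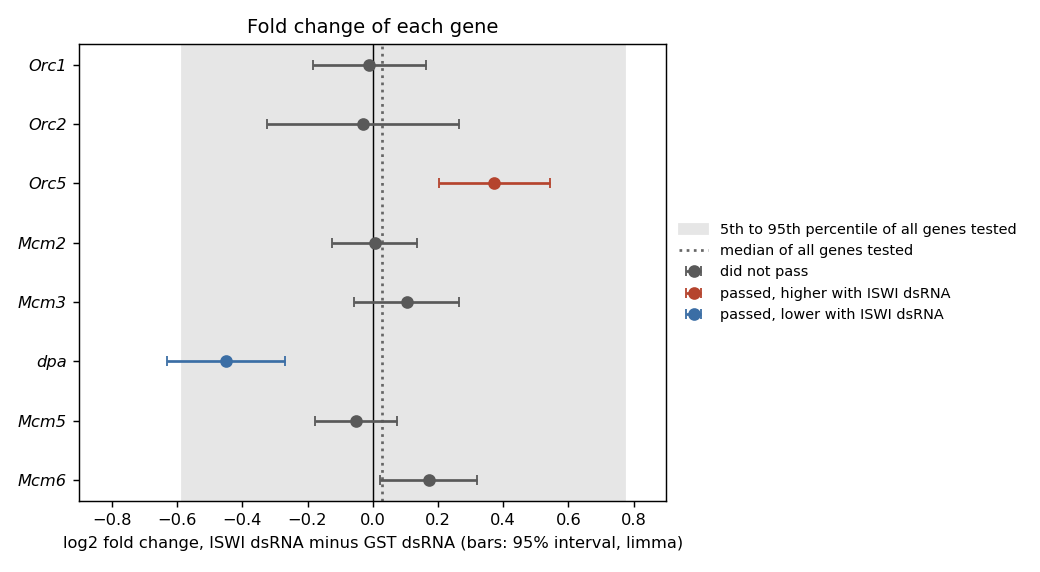
Log2 fold change of each origin recognition and MCM gene, ISWI dsRNA minus GST dsRNA, with limma's 95% interval as bars. The interval of dpa lies wholly below 0 and those of Orc5 and Mcm6 wholly above it, and all 8 estimates lie inside the range from the 5th to the 95th percentile of all genes tested (-0.58 to 0.77).

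Within the helicase, dpa was the member that fell. The dpa probe set read 8.94, 8.85 and 9.04 on the ISWI arrays, against 9.50, 9.32 and 9.35 on the GST arrays. Every ISWI array was below every GST array. The dpa mean was 8.94 ± 0.09 with ISWI dsRNA and 9.39 ± 0.10 with GST dsRNA (SD, n = 3 each). The log2 fold change was -0.45 (standard error 0.08, limma adjusted p = 0.00308), which leaves the ISWI cells at 73.2% of the GST level of dpa. The 95% interval ran from -0.63 to -0.27 on the log2 scale. In size this is a moderate difference for these arrays, since 18.8% of all genes tested had a larger absolute fold change and 8.09% had a lower fold change.

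The other MCM genes with a probe set did not pass. Mcm2 showed the least difference of the MCM genes, at 10.03, 10.09 and 9.99 on the ISWI arrays, against 10.03, 9.99 and 10.07 on the GST arrays. The Mcm2 groups overlapped, and the log2 fold change was 0.0061 with a 95% interval of -0.12 to 0.14. On a linear scale the Mcm2 interval allows a difference between -8.26% and 9.93%.

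Mcm5 read 9.57, 9.56 and 9.55 on the ISWI arrays, against 9.63, 9.58 and 9.63 on the GST arrays. The ISWI values of Mcm5 lay within 0.013 of each other and all lay below the GST values, yet the log2 fold change was -0.051 (95% interval -0.18 to 0.075, limma adjusted p = 0.488). Of all genes tested, 84.9% had a larger absolute fold change than Mcm5.

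Mcm3 and Mcm6, the members on the X chromosome, had positive fold changes that did not pass. Among all genes tested, the median log2 fold change was 0.015 for X-linked genes and 0.030 for autosomal genes. Mcm3 read 8.38, 8.34 and 8.29 on the ISWI arrays, against 8.28, 8.16 and 8.26 on the GST arrays. The Mcm3 groups were apart by a narrow margin, with a log2 fold change of 0.10 and a limma adjusted p = 0.266. Mcm6 read 10.67, 10.46 and 10.55 on the ISWI arrays, against 10.40, 10.40 and 10.36 on the GST arrays. All ISWI values of Mcm6 were above all GST values, and the ISWI replicates were spread over 0.21 while the GST replicates were spread over 0.042. The log2 fold change of Mcm6 was 0.17 (95% interval 0.024 to 0.32, which is not adjusted for the number of probe sets, and limma adjusted p = 0.0652). Without ISWI replicate 2, the array with the largest 3' to 5' gap of eIF-4a and the lowest Mcm6 value of its group, the Mcm6 log2 fold change was 0.22 and passed (limma adjusted p = 0.0281). Without ISWI replicate 1, which held the highest Mcm6 value, it was 0.12 (limma adjusted p = 0.138). Mcm6 did not pass without any other single array.

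**Figure D2:**
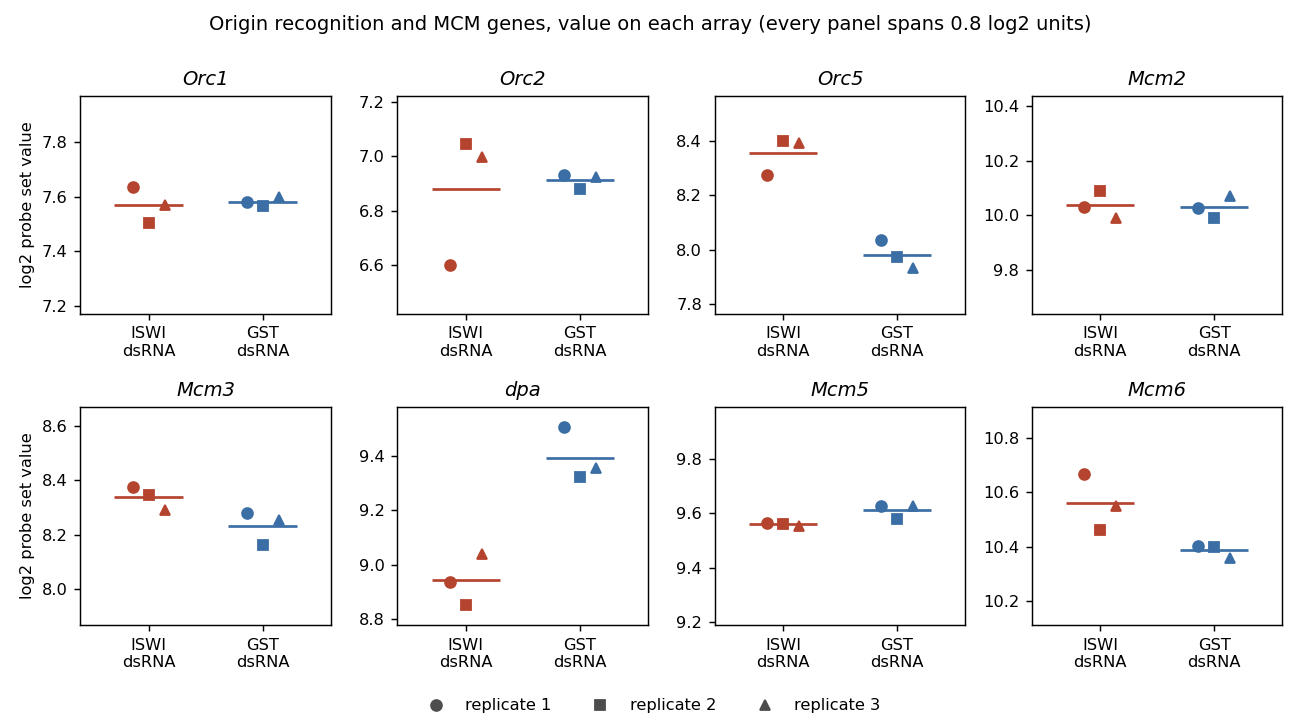
Deposited log2 value of each gene on each array, ISWI dsRNA on the left of each panel and GST dsRNA on the right, with a line at the group mean and a marker shape for each replicate number. Every panel spans the same 0.8 log2 units, so the distance between groups can be compared across genes, and the groups lie clearly apart for dpa (8.94 against 9.39) and Orc5 (8.35 against 7.98).

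Since the MCM subunits work in one ring, dpa was also set against its partners on the same array. A difference between 2 probe sets on 1 array does not give a ratio of molecules, but its change between arrays can be read. The difference of dpa minus the mean of Mcm2, Mcm3, Mcm5 and Mcm6 was -0.72, -0.76 and -0.56 on the ISWI arrays, against -0.080, -0.21 and -0.22 on the GST arrays. The groups were apart by 0.33, and the mean difference was 0.51 log2 units lower in the ISWI group (ISWI minus GST -0.51). The mean of these partner genes was 9.62 ± 0.03 with ISWI dsRNA and 9.56 ± 0.03 with GST dsRNA (SD, n = 3 each). Against single partners the ISWI minus GST difference of dpa was -0.40 with Mcm5, -0.46 with Mcm2, -0.55 with Mcm3 and -0.62 with Mcm6. For each of these 4 partners the ISWI values were all lower than the GST values. The partners were known before this comparison to have changed less than dpa, so these values are a description and carry no test.

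**Figure D3:**
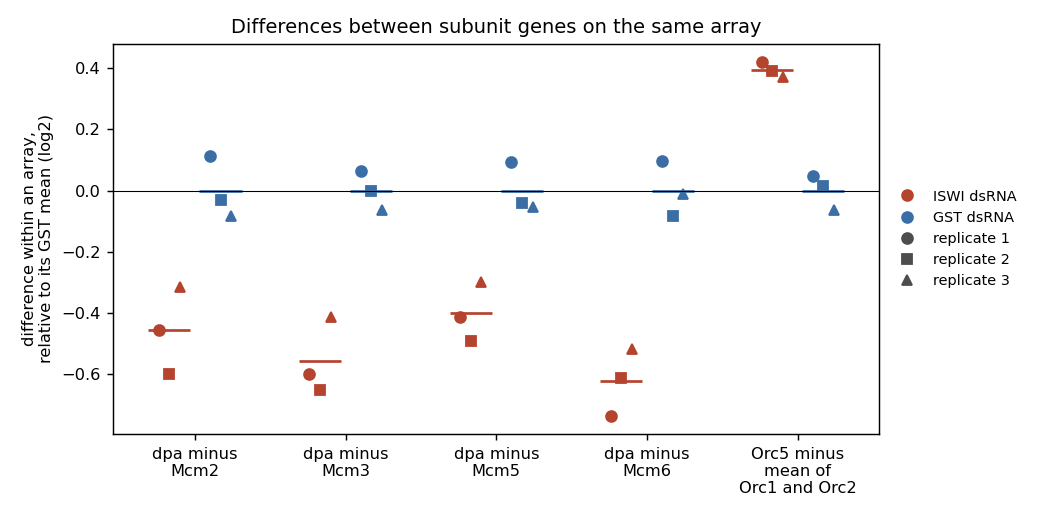
Differences between subunit genes taken on the same array, drawn relative to the mean of the GST arrays, with ISWI dsRNA left of GST dsRNA for each difference and lines at the group means. The 3 ISWI values lie under every GST value for dpa against each of 4 partners, and over every GST value for Orc5 against the mean of Orc1 and Orc2.

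In the origin recognition complex the gene that rose was Orc5, which encodes an ATP-binding subunit. Orc5 read 8.27, 8.40 and 8.39 on the ISWI arrays, against 8.04, 7.97 and 7.93 on the GST arrays. The lowest ISWI value of Orc5 was above the highest GST value. The mean was 8.35 ± 0.07 with ISWI dsRNA and 7.98 ± 0.05 with GST dsRNA (SD, n = 3 each). This gave a log2 fold change of 0.37 (standard error 0.07, 95% interval 0.20 to 0.54, limma adjusted p = 0.00518), or a level of Orc5 in ISWI cells 29.5% above that in GST cells. Of all genes tested, 13.8% had a higher fold change than Orc5.

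Orc1, the subunit whose ATPase activity drives loading of the helicase, did not pass. It read 7.64, 7.51 and 7.57 on the ISWI arrays, against 7.58, 7.57 and 7.60 on the GST arrays, which overlapped. The Orc1 log2 fold change was -0.010, and its 95% interval allows a difference between -11.9% and 11.9%. Orc1 and dpa lie near each other on chromosome arm 2R, with 6 protein-coding genes between them in the gene order of genome Release 6.

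Orc2, a core subunit of the complex, was the least precisely measured member. It read 6.60, 7.04 and 7.00 on the ISWI arrays, against 6.93, 6.88 and 6.92 on the GST arrays. ISWI replicate 1 was below all other arrays and the other ISWI arrays were above all GST arrays, so the SD of Orc2 was 0.24 over the ISWI arrays and 0.028 over the GST arrays. The Orc2 log2 fold change was -0.031 (standard error 0.13), with an interval that allows a difference between -20.2% and 20.0%. Without ISWI replicate 1 it was 0.11 (limma adjusted p = 0.323), so the sign of the Orc2 estimate rests on that array, while the gene did not pass either way.

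Orc4, a further ATPase-family subunit that is not among the listed genes, read 7.72, 7.68 and 7.77 on the ISWI arrays, against 7.69, 7.53 and 7.64 on the GST arrays. Its log2 fold change of 0.099 did not pass (limma adjusted p = 0.344). Orc4 was looked at as another subunit of the complex, outside the rule for named genes, and the complex is still not covered in full. Within an array, Orc5 minus the mean of Orc1 and Orc2 was 1.15, 1.12 and 1.11 in the ISWI group, against 0.78, 0.75 and 0.67 in the GST group. The groups were 0.32 apart, with every ISWI array above every GST array. The low Orc2 value of ISWI replicate 1 (6.60) enlarges the difference on that array, and Orc4 is not part of the mean. Orc1 and Orc2 were known before this comparison to have changed less than Orc5, so these values are a description and carry no test.

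The steps on either side of MCM loading were described with lists of genes of the same pathway. The licensing, fork and S-phase regulator lists held 15, 27 and 18 genes. Of these, 13, 24 and 13 had a probe set under their symbol, so no list was covered in full. Of 13 tested genes for licensing and helicase activation outside the members, with Orc4 counted among them, 3 rose and 0 fell by limma. In all 23.1% passed, under the background of 41.1%, and at an unadjusted p of 0.05 the counts were 4 higher and 1 lower. The list's median log2 fold change was 0.070, beside 0.028 for all genes. The genes that rose were the loading factor gene Cdc6 and the genes for the GINS subunits Psf1 and Psf3.

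Cdc6 read 7.14, 7.53 and 7.24 on the ISWI arrays, against 6.88, 6.81 and 6.89 on the GST arrays. All ISWI values were higher and they were also more spread. The Cdc6 log2 fold change was 0.44 (standard error 0.11, limma adjusted p = 0.0170). The limma adjusted p of Cdc6 was 0.0520 without GST replicate 1, and 0.0655 when GST replicate 2 was left out. The gene for its partner in loading, dup, gave 9.42, 9.34 and 9.31 on the ISWI arrays, against 9.61, 9.54 and 9.43 on the GST arrays. The dup values were thus lower on every ISWI array, with a log2 fold change of -0.17 that did not pass (limma adjusted p = 0.0840).

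Psf3 read 7.85, 8.14 and 8.20 on the ISWI arrays, against 7.46, 7.82 and 7.69 on the GST arrays, a log2 fold change of 0.40 (limma adjusted p = 0.0368). Psf1 read 7.79, 7.80 and 8.11 on the ISWI arrays, against 7.63, 7.53 and 7.62 on the GST arrays, a log2 fold change of 0.30 (limma adjusted p = 0.0492). For both genes the ISWI arrays were all above the GST arrays, but the calls were close to the threshold. Psf3 passed without ISWI replicate 1 or GST replicate 2 and Psf1 without ISWI replicate 1 or ISWI replicate 2, and neither passed without any other single array. The other GINS genes, Sld5 and Psf2, had log2 fold changes of -0.091 and 0.025 and did not pass (limma adjusted p = 0.424 and 0.841). Cdc45, the gene for the third component of the active helicase, was at 0.070 (limma adjusted p = 0.541). The count of licensing genes that passed was 0 without GST replicate 1, the array with the high 18S rRNA signal (2 higher and 0 lower at an unadjusted p of 0.05) and 1 without GST replicate 2 or GST replicate 3. Over the whole array, 2974 probe sets passed as reported. Without GST replicate 1, 2 or 3 the number was 2197, 2100 or 2150, so the fall was not limited to licensing genes or to GST replicate 1. For chif, which encodes the partner of the Cdc7 kinase and was singled out after its values were seen, the probe sets disagreed, with 0.23 on the brighter (limma adjusted p = 0.0642) and -0.34 on the other (limma adjusted p = 0.0311).

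At the replication fork, 5 of 23 tested genes rose and 2 fell (30.4% passed, background 41.1%), and the median log2 fold change was 0.036. The single-stranded DNA binding subunit gene RPA3 read 10.29, 10.33 and 10.30 on the ISWI arrays, against 9.84, 10.02 and 9.97 on the GST arrays. RPA3 rose by 0.36 (limma adjusted p = 0.00308), and the DNA polymerase delta subunit gene PolD2 and the clamp loader gene RfC4 rose by 0.35 and 0.19 (limma adjusted p = 0.00638 and 0.0214). PolA2, which encodes the regulatory subunit of DNA polymerase alpha, read 7.60, 7.74 and 7.70 on the ISWI arrays, against 8.06, 7.99 and 8.19 on the GST arrays. PolA2 fell by 0.40 and the topoisomerase gene Top1 fell by 0.50 (limma adjusted p = 0.00748 and 0.0142). The other genes of the alpha polymerase and primase complex, PolA1, Prim1 and Prim2, had log2 fold changes of 0.033, -0.088 and 0.14 and did not pass. PCNA, the sliding clamp gene, was at 0.036 (limma adjusted p = 0.613). Leaving out either GST replicate 2 or GST replicate 3 gave 2 higher and 1 lower fork genes. RfC4 lost its call without ISWI replicate 2 or any GST array, and Top1 without GST replicate 2 or GST replicate 3.

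Among regulators of entry into S phase, 2 of 13 tested genes fell and 0 rose by limma (15.4% passed, background 41.1%), with 3 lower and 1 higher at an unadjusted p of 0.05. The median log2 fold change of this list was -0.11. The gene mip130, a subunit of a repressive Myb and E2F complex, read 7.59, 7.30 and 7.45 on the ISWI arrays, against 7.85, 7.90 and 7.80 on the GST arrays. It fell by 0.40 (limma adjusted p = 0.0111), and the cyclin-dependent kinase gene Cdk4 fell by 0.30 (limma adjusted p = 0.0409). The call of mip130 was lost without GST replicate 2 (limma adjusted p = 0.0511), and that of Cdk4 without any single array but ISWI replicate 2. CycE and Cdk2, the cyclin and kinase pair that starts S phase, had log2 fold changes of 0.17 and -0.080 and did not pass (limma adjusted p = 0.212 and 0.436). The S-phase regulator count was 0 without GST replicate 2 (1 higher and 1 lower at an unadjusted p of 0.05), 3 without ISWI replicate 2 and 1 without any other single array.

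**Figure D4:**
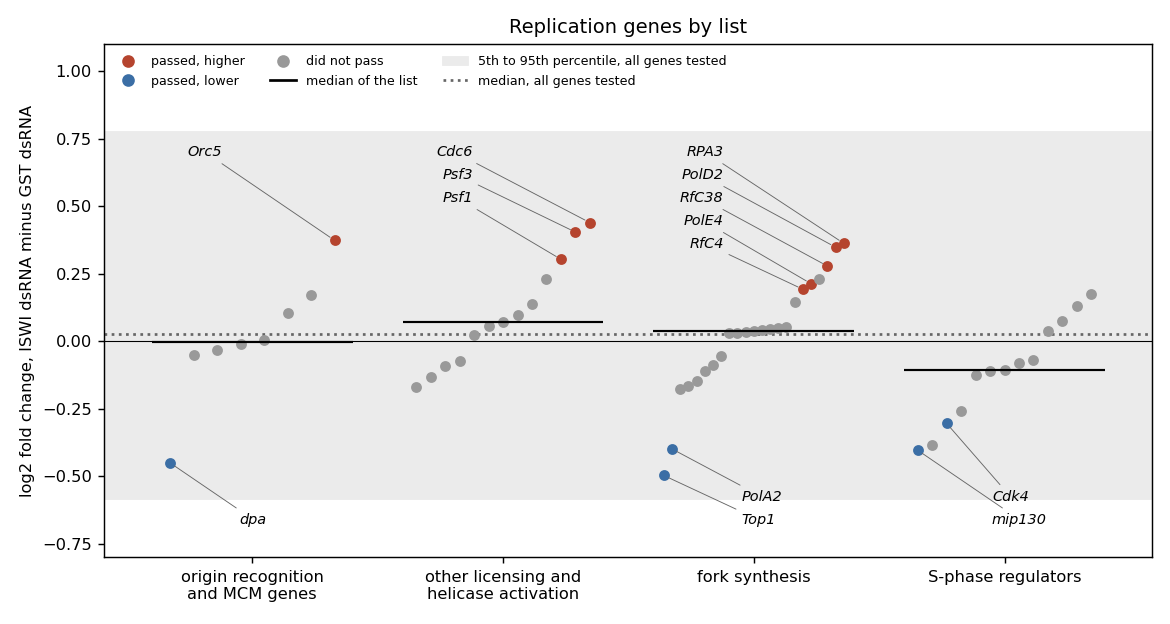
Log2 fold change (ISWI dsRNA minus GST dsRNA) of each tested gene in the 4 groups of replication genes, with the median of each list as a black line and the genes that passed limma's adjusted p of 0.05 named. The medians are -0.0020, 0.070, 0.036 and -0.11 from left to right, and no gene in these lists lies outside the range from the 5th to the 95th percentile of all genes tested.

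The genes next to the members were read to see whether dpa and Orc5 moved with their surroundings. Of 32 nearest tested genes, 2 on each side of each member in the Release 6 gene order, 4 rose and 11 fell (46.9% passed). Among all genes tested 41.1% passed, with 23.4% higher and 17.6% lower, so falls outnumbered rises among the neighbours but not among all genes. Orc5 rose while 3 of its 4 neighbours fell, with mRpS23 at -0.56, PolG1 at -0.49 and Arpc1 at -0.42 (limma adjusted p = 0.000537, 0.00950 and 0.00796), and CenG1A at 0.22 did not pass. The neighbours of dpa differed from each other, with az2 at -0.44 and CG1620 at -0.30 (limma adjusted p = 0.00275 and 0.0217), and mEFTu2 at 0.093 and Coop at -0.10, which did not pass. The nearest tested genes on either side of Mcm2 were RPA1, itself a replication gene, and CG9630. They had log2 fold changes of 0.054 and 0.010 and did not pass. Of the next genes out, mRpL1 fell by 0.20 (limma adjusted p = 0.0275), and CG9636 at 0.062 did not pass. These neighbours were chosen by position, and whether position bears on the members was not tested.

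The calls of dpa and Orc5 at an adjusted p of 0.05 were the same under each of 15 alternatives run, which changed the filter, scaling, moderation, weights or block, or left out an array. The log2 fold change of dpa ran from -0.50 to -0.39, with a limma adjusted p of 0.00245 to 0.0160. That of Orc5 ran from 0.34 to 0.41, with a limma adjusted p of 0.00423 to 0.0270. Without ISWI replicate 2, which stood apart in its eIF-4a controls, dpa was at -0.41 and Orc5 at 0.35 (limma adjusted p = 0.00801 and 0.0134). Without GST replicate 1, which stood apart in its 18S rRNA controls and held the highest dpa value, dpa was at -0.39 and Orc5 at 0.40 (limma adjusted p = 0.0160 and 0.0167). Orc1, Orc2, Mcm2, Mcm3 and Mcm5 passed in 0 of 15 and Mcm6 in 1 of 15. The sign of Mcm3, Mcm5 and Mcm6 was the same in all 15, while that of Mcm2 was negative in 4 and those of Orc1 and Orc2 were positive in 1 each.

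**Figure D5:**
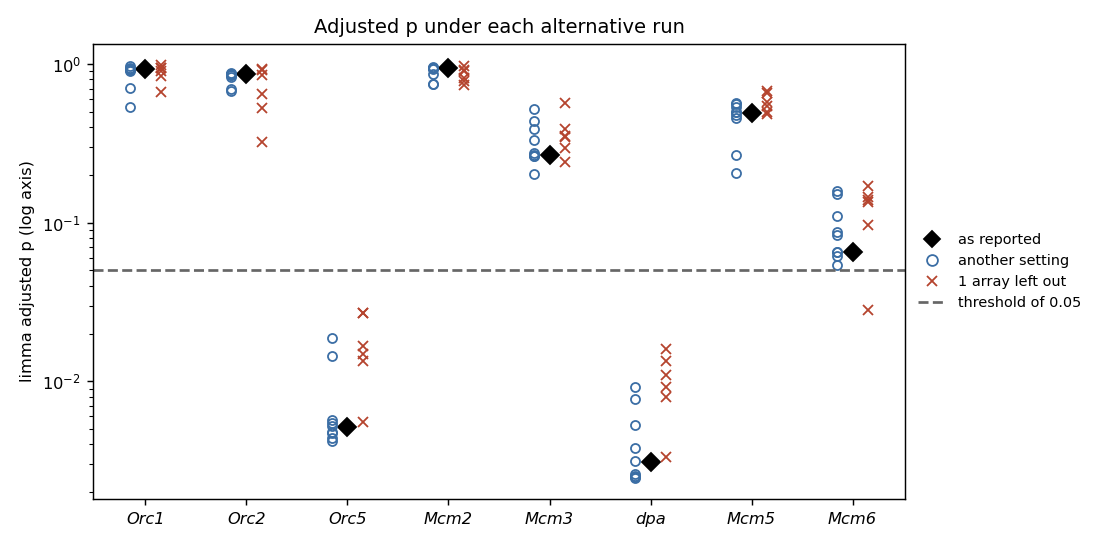
Limma adjusted p of each gene (log axis) as reported, under each other setting and with each array left out, with the threshold of 0.05 as a dashed line. All marks of dpa and Orc5 lie below the line, and those of the other genes lie above it except for Mcm6 without ISWI replicate 2 (0.0281).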

How the data were processed

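The deposited values are log2 probe set values, made by the authors with GCRMA, per the submitters' processing notes. GCRMA in general corrects background, normalizes arrays by quantiles and summarises probes. Its version was not given in the sources used here. A shift of total RNA content between treatments would not be seen.

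Of 18952 probe sets, 183 were controls and left out. The 7390 whose log2 value exceeded 4 on 3 or more of the 6 arrays were fitted with limma 3.58.1 (R 4.3.3), using a linear model per probe set and trended empirical Bayes moderation. Two-sided p-values were adjusted by Benjamini-Hochberg across those 7390, and an adjusted p under 0.05 counted as passed. Samples were grouped by their titles. The series' design text calls the replicates biological. Intervals are limma's 95% intervals, and the number of arrays limits the precision.

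Gene names came from the platform annotation through a gene table of genome Release 6. The brightest tested probe set stood for each of 5997 genes. Coordinates are not given, and gene order and chromosome arms follow the Release 6 gene table. The members and lists were chosen with earlier results of these data known. Named are Iswi, all members, and up to 3 higher and 3 lower passing genes per replication list by smallest adjusted p. Other genes were named after their values were seen. Arrays were left out with the tested probe sets kept. The scripts were tested on simulated data.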

Additional observations from a re-analysis of the deposited data

How the results depend on the processing

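Alternatives changed the filter, the scaling (a second quantile normalization, or centring), the variance moderation, the weights of arrays, the threshold or the way probe sets of a gene were joined, added a replicate block, or left out an array. Applying them to the named list genes was chosen after seeing the data. Without the filter on dim probe sets, 2236 of 18769 probe sets passed limma, against 2974 of 7390 as reported. At that setting 0 licensing genes passed (4 higher and 1 lower at an unadjusted p of 0.05), with 1 S-phase regulator, 5 fork genes and 2 members. At an adjusted p of 0.01 the counts were 1749 probe sets on the array, 2 members, 0 licensing genes, 3 fork genes and 0 S-phase regulators. At an adjusted p of 0.05 with at least 1.5-fold required, 908 of the 7390 probe sets tested passed. At that setting 0 members passed in either direction, and 0 genes of each of the 3 lists. At an unadjusted p of 0.05 with no fold required, 2 members were higher and 1 lower. The counts were 4 and 1 for licensing genes, 6 and 4 for fork genes, and 1 and 3 for S-phase regulators. The share of all genes tested at that threshold was not counted and is at least 41.1%, so these counts have no exact background. With 1 array left out, 2100 to 3023 probe sets passed, with 2 to 3 members (1 to 2 higher, 1 lower), 0 to 3 licensing genes, 3 to 7 fork genes and 0 to 3 S-phase regulators. The cause of these moves was not tested. After quantile normalization again the licensing count was 2 higher and 1 lower.

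Replicate numbers are not said to pair cultures, and deviations of same-numbered arrays from their group means correlated at -0.18, 0.12 and 0.059. With a replicate block 2808 probe sets passed, 2 members, 2 licensing genes, 6 fork genes and 2 S-phase regulators, and the block ended the call of Psf1 (limma adjusted p = 0.0541) and of no other gene named by the rule.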
